A study of Mus musculus with 8 samples.

Results

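The RNA that came down with Argonaute (Ago) in neural precursors (NPC/Neu) was compared with total RNA of the same stage, gene by gene. NPC/Neu cells were derived from mouse ES cells of the E14Tg2A line (strain 129/Ola) by 10 days in vitro (DIV): a phase as floating aggregates, a phase attached to poly-ornithine and laminin, and, after a second dissociation, a last phase in minimal medium without the B27 supplement. One array received RNA immunoprecipitated with an anti-pan Ago antibody (clone 2A8) from cytosolic complexes, and the other received total RNA of cells at the same stage. Each holds RNA pooled from 3 independent experiments, so that neither side has a replicate, no test was possible, and every comparison below is a description of 1 array against 1 array. A gene entered when at least 1 of its probes was well above background on both arrays by the scanner software's criterion, which held for 21051 of the 36163 gene names on the array. The ES, ELA and NPC stages of the same series gave 22459, 20375 and 21238 such genes.

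Argonaute proteins are the core of the RNA-induced silencing complex (RISC). They hold a short guide RNA, usually a microRNA (miRNA), whose seed near the 5′ end pairs with sites that lie mostly in the 3′ UTR of an mRNA. Through GW182 proteins and deadenylases a bound mRNA is then kept from translation or degraded. Recovery of an mRNA with Ago therefore depends on how much of it is present and on how much of that is held by the complex. The log2 ratio of the Ago–RNA signal to the total RNA signal of a gene, Ago enrichment (E), sets the first aside. It was averaged over the passing probes of a gene, and a value of 1 stands for a signal 2 times as high on the Ago–RNA array. Immunoprecipitation started from cytosolic complexes while total RNA was not fractionated, so a low E from lack of Ago and one from RNA that stays in the nucleus cannot be told apart. Control immunoprecipitations were not analysed here.

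All 8 arrays of the series lay on 1 slide, with 62976 spots each. At the NPC/Neu stage 55.3% of the spots on the Ago–RNA array and 59.3% on the total RNA array were well above background, 320 and 141 spots were irregular and left out, and 0 were saturated. Probes printed in 10 spots each gave a median spot SD of 0.08 for E, which covers noise within arrays and not variation between cultures or immunoprecipitations. Between probes of the same gene the median SD of E was 0.29, over 5354 genes with at least 2 probes.

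The cells carried the markers of their label. Of 22 neural progenitor genes, 22 were well above background in total RNA, and 19 were higher than in ES cells by at least 1 on the log2 scale. Fabp7, a fatty acid carrier of radial glia, rose from 6.96 in ES cells to 17.38 (normalized log2 signal, total RNA). All 25 neuron genes were well above background and 21 were higher by at least 1, among them Tubb3, a neuronal tubulin, with 12.95 in ES cells and 17.01 here. Of 16 pluripotency genes 15 were still well above background, but every one was lower than in ES cells by at least 1, and Pou5f1 (Oct4) went from 15.21 to 8.31. Of 11 glia genes 10 were well above background and 4 were higher by at least 1, and of 16 mesoderm and endoderm genes 10 and 4. Foxa2, which marks endoderm and the floor plate, had the largest rise of that list, 3.35. The share of all genes that rose or fell as much from ES cells is not given here, so none of these counts can be set against it. Fewer cells of a type and less RNA per cell cannot be told apart in such pooled samples.

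Across the 21051 genes E had a median of 0.09 and an SD of 0.96, with quartiles of -0.44 and 0.59 and a range from -5.28 to 3.40. For 75.6% of the genes E lay within 1 of zero. E was at least 1 for 2635 genes, or 12.5% of all genes compared, and at most -1 for 2494 genes, or 11.8%. Further out, the lower side held more genes. E was at least 2 for 295 genes (1.40%) and at most -2 for 653 genes (3.10%). Signals on both arrays followed each other over genes, with a Pearson correlation of 0.94, and E fell with the total RNA signal that is its own denominator (Spearman's rho -0.24). Genes are not independent replicates, and these correlations describe the 2 arrays.

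The highest values belonged to genes of several kinds. Lzts1, a leucine zipper protein of synapses and delaminating neural cells, had the highest E of all genes with a symbol. Its log2 signal was 12.03 on the Ago–RNA array and 8.63 on the total RNA array, an E of 3.40 or 10.5 times. Spna2 (Sptan1, alpha-spectrin of the membrane skeleton) followed with 16.49 against 13.11 and an E of 3.38 ± 0.98 (SD, n = 2 probes). For Col12a1, a fibril-associated collagen, the signals were 11.45 and 8.15, and for Flnc, an actin-crosslinking filamin, 14.98 and 11.81. Ipo7, a nuclear import receptor, had 12.84 and 9.68, Fat1, a giant cadherin, 18.22 and 15.07, and Apc2, a neuronal relative of the Wnt regulator Apc, 17.36 and 14.24. Lmnb1, the B-type lamin of the nuclear lamina in neural progenitors, had 17.39 and 14.28. The last of the 10 highest were Zic2, a zinc finger factor of the dorsal neural tube, with an E of 3.04, and the receptor gene Igf1r with 2.98. The probes of these last 2 genes lay outside annotated coding genes. Each of the 10 was therefore 7.87 to 10.5 times as high on the Ago–RNA array.

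High values were not limited to single probes. In 345 genes all of 2 or more probes had E of at least 1. The highest of these after Spna2 were Hspg2 (perlecan, 2.82 ± 1.19, SD, n = 2 probes), Cltc (clathrin heavy chain, 2.79 ± 0.25), Syne2 (nesprin 2, which ties the nucleus to actin, 2.77 ± 0.20), Ubr4 (a ubiquitin ligase, 2.75 ± 0.45), Supt6h (an elongation factor, 2.71 ± 0.31) and Herc1 (a giant ubiquitin ligase, 2.70 ± 0.52). Trim35 came among them at 2.78, but its probes were far apart, with 1.11 in the 3′ UTR and 4.44 in the coding sequence. At the latter probe the signals were 13.21 and 8.76. On mm9, Lzts1 lies on chromosome 8 from 71659345 to 71664908, Spna2 on chromosome 2 from 29821080 to 29886971, Ipo7 on chromosome 7 from 117161939 to 117198628, and Trim35 on chromosome 14 from 66915868 to 66930261. The coding sequences under the array's 60-base probes for these 4 genes are given here as examples from both sets of high genes, 2 with 1 probe and 2 with 2 probes, all on the sense strand of the mRNA, 5′ to 3′.
Lzts1, chr8:71659579-71659638, minus strand: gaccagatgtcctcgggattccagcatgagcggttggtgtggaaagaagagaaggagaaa
Spna2, chr2:29835660-29835719, plus strand: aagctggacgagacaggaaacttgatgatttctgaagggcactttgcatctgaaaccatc
Ipo7, chr7:117194867-117194926, plus strand: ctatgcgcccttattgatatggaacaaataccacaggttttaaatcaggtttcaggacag
Trim35, chr14:66922843-66922902, plus strand: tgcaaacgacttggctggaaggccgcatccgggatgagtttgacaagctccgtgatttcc

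At the bottom stood noncoding RNAs, and with them a set of other gene names whose probes did not always report the gene they are named for. Malat1, an abundant RNA of nuclear speckles, had a log2 signal of 9.98 on the Ago–RNA array and 14.14 on the total RNA array, an E of -4.16, so that it was 17.9 times as high in total RNA. Under its older name NEAT2 the array held 3 more probes, whose E was -4.26 ± 0.16 (SD, n = 3 probes). One of them has the same sequence as the Malat1 probe. Meg3, the imprinted noncoding RNA of the Dlk1-Dio3 cluster, had an E of -4.08 ± 0.33 (SD, n = 3 probes), and its neighbor Mirg, the host of a miRNA cluster, -2.88 ± 1.16 (n = 2). Gas5, a host of small nucleolar RNAs, had -2.64 ± 0.99 (n = 3). For each of NEAT2 and Meg3, 2 of the 3 probes are printed. Those of NEAT2 adjoin each other, and those of Meg3 lie apart and show the low value at separate points of 1 RNA.
NEAT2, chr19:5795713-5795772, minus strand, E -4.11: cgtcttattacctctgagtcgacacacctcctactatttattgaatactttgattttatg
NEAT2, chr19:5795773-5795832, minus strand, E -4.25: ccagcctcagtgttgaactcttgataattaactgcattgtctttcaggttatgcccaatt
Meg3, chr12:110799558-110799617, plus strand, E -3.89: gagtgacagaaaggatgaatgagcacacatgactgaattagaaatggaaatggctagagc
Meg3, chr12:110809678-110809737, plus strand, E -3.88: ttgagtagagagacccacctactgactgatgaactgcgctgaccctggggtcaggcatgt

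Among the other gene names low values were those of Cabp5 (a calcium-binding protein of the retina, -4.16), Pou5f2 (-3.82), Prosapip1 (Lzts3, -3.74), Gdap10 (-3.53), Gab3 (-3.51) and Esr2 (-3.38), each from 1 probe. Their total RNA signals were between 11.78 for Pou5f2 and 16.36 for Gab3. The probe of Pou5f2 lay inside a coding gene without touching an exon, and that of Gdap10 lay in a noncoding exon. Gcm1 had -3.27 ± 0.38 over 3 probes, but the positions given for these were on chromosomes 5 and 7, while the gene is on chromosome 9. The Gab3 probe is shown with a trinucleotide repeat that fills its end in capitals, since other RNAs that hold the repeat could have paired with it.
Gab3, chrX:72245336-72245395, minus strand: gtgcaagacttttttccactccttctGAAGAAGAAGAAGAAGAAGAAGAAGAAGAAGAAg
Low values over 2 or more probes were further found for Slfn9 (-2.59 ± 0.73), Zcchc7 (-2.52 ± 2.14), Ttc14 (-2.24 ± 0.68) and Nmb (neuromedin B, -1.98 ± 0.18). The lower probe of Zcchc7 lay in a noncoding exon, and 1 of the 2 probes of Ttc14 on the opposite strand of a coding gene. Of these 4 genes, Nmb had the closest probes and lies on chromosome 7 from 88047114 to 88049962.

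**Figure D1:**
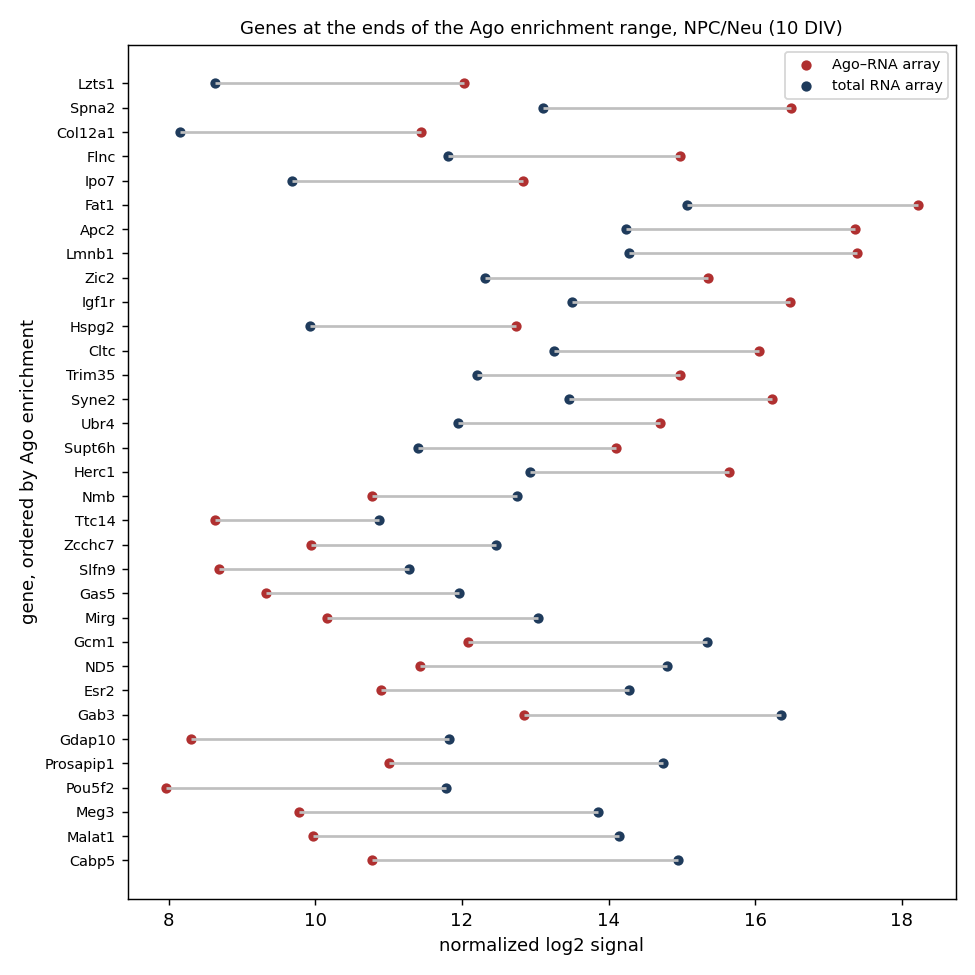
Normalized log2 signal (horizontal axis) of the genes at both ends of the range of Ago enrichment on the Ago–RNA array (red) and the total RNA array (blue), 1 array each, ordered by E on the vertical axis. Lzts1 (12.03 on the Ago–RNA and 8.63 on the total RNA array) stands at the top, and Malat1 (9.98 and 14.14) and Cabp5 are at the bottom.

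E differed with the place of a probe on the annotation (GENCODE, mm9). Coding transcripts held 18266 passing probes with a median E of 0.22, of which 17.3% were at least 1 and 7.52% at most -1. Inside a coding gene on its own strand but in no exon lay 936 probes. Their median E was -0.76, 44.0% of them were at most -1 and 29.8% at most -2, against 1.02% at most -2 in coding transcripts. The 757 probes on the opposite strand of a coding gene had a median of -0.07, and the 5195 probes outside coding genes also -0.07. In 86 genes the same gene name had probes of the first 2 kinds. The exonic probes had a median E of 0.28 and the intronic ones of -0.44, the exonic side was higher in 62 genes, and it was higher by at least 1 in 34 genes against 2 genes in the other direction. For Traf6, a ubiquitin ligase of immune signaling, E was 0.72 in the transcript and -2.98 in the intron. For Plcb4, a phospholipase of neurons, the values were 0.33 and -3.00. Both are among the 7 widest of the 86. Intronic sequence was thus less represented on the Ago–RNA array in the genes where both could be read.

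By the kind of record behind a probe, 13797 RefSeq mRNAs had a median E of 0.24, 304 RefSeq noncoding RNAs -0.25, 2484 intergenic lincRNA intervals -0.04, and 518 RIKEN clones without a RefSeq mRNA -0.20. E was at most -2 for 0.609% of the mRNAs, 7.89% of the noncoding RNAs, 4.87% of the intergenic intervals and 20.3% of the RIKEN clones.

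**Figure D2:**
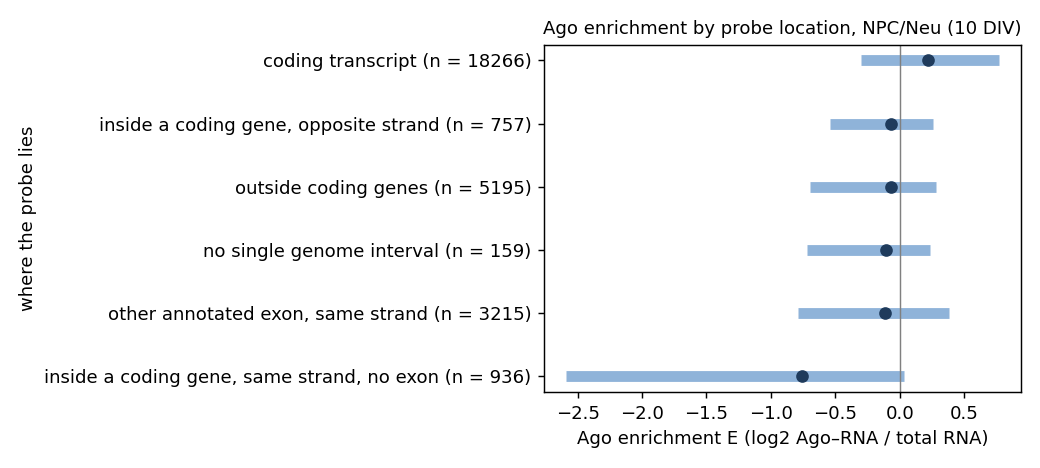
Median (dots) and quartiles (bars) of Ago enrichment, in log2 units on the horizontal axis, for probes well above background on both NPC/Neu arrays, grouped by where the probe lies, with the number of probes beside each group. Probes inside coding genes on the same strand but in no exon have a median of -0.76 and the lowest lower quartile, and those in coding transcripts have the highest median, 0.22.

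Genes could also be read from the mitochondrial genome, whose transcripts stay inside the organelle. Of 7 mitochondrial mRNA probes, the 6 on the plus strand were all lower on the Ago–RNA array. ND5 had log2 signals of 11.43 and 14.80 and an E of -3.37, and E was -3.17 for ND4, -2.96 for ND1, -2.39 for CYTB, -2.09 for ND2 and -0.54 for COX1. ND6, the mRNA of a complex I subunit that is read from the other strand, went the opposite way, with 13.24 on the Ago–RNA array against 10.59 on the total RNA array and an E of 2.65. It was printed in 1 probe, beside that of ND5, and both sequences are given as the pair that parts on the strands.
ND5, chrM:13402-13461, plus strand: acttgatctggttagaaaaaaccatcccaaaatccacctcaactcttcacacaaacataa
ND6, chrM:13552-13611, minus strand: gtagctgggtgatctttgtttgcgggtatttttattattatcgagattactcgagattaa
The mitochondrial genes were looked at after their values were seen.

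Ago enrichment rose with the length of the coding sequence. Over 13938 genes with a probe in a single coding gene, Spearman's rho of E was 0.53 with coding length, 0.50 with transcript length and 0.24 with 3′ UTR length. The median E was -0.34 for 1643 genes with up to 500 coding bases, 0.16 for 3029 genes between 1000 and 1500 bases, 0.61 for 2097 genes between 2000 and 3000, and 1.61 for 207 genes over 7500 bases. E was at least 1 for 3.59% of the shortest class and for 72.0% of the longest. Within the 8 classes of coding length, rho of E with 3′ UTR length was between 0.07 and 0.21. With the GC content of the coding sequence rho was 0.06, and over 17961 probes rho with the distance of the probe from the 3′ end of the transcript was 0.01. In 1718 genes with probes in both, the coding sequence and the 3′ UTR differed by a median of -0.09. E thus went with the length of the mRNA and showed almost no relation to the position of the probe. RNA integrity was not measured in these files, and its part in the relation with length was not tested. For the lists below, the median of E is therefore also given relative to the median of all genes in the same class of coding length, where coding length applies. This relative median covers only members with a coding length, which can be fewer than those behind the plain median. Counts of members past 1 and -1 are to be read beside the 12.5% and 11.8% of all genes. For counts above and below zero no such share is given, and they are to be read beside the median E of 0.09 over all genes.

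**Figure D3:**
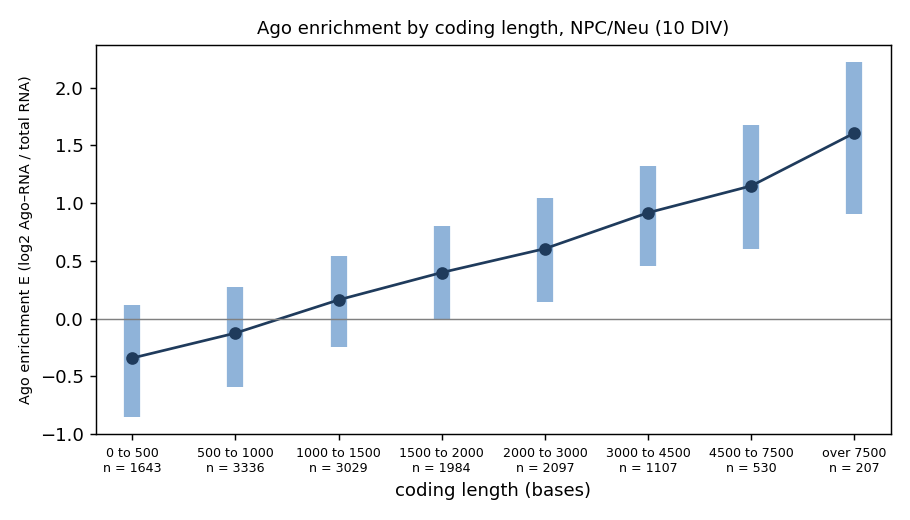
Median (dots, joined) and quartiles (bars) of Ago enrichment in log2 units (vertical axis) for classes of coding length in bases (horizontal axis), with the number of genes in each. The median climbs from -0.34 in the shortest class to 1.61 above 7500 bases.

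The genes of the silencing machinery itself were mostly above zero, with 22 of 26 Argonaute and effector genes. Of the 26, 12 (46.2%) had E of at least 1 and 1 (3.85%) had E of at most -1, against 12.5% and 11.8% of all genes, and the median was 0.98, or 0.41 above their classes of coding length. Among the Argonautes, Eif2c1 (Ago1) had log2 signals of 12.11 on the Ago–RNA array and 10.90 on the total RNA array, with E of 1.21 ± 0.08 (SD, n = 2 probes). E was 1.08 for Eif2c3 (Ago3) and 0.99 ± 0.19 (n = 2) for Eif2c4 (Ago4). For Eif2c2 (Ago2), the only slicing Argonaute, 2 probes in the 3′ UTR gave -1.52 and 1.57, so that its mean of 0.03 stands for neither. The GW182 genes Tnrc6a, Tnrc6b and Tnrc6c had 0.98, 1.13 and 1.90. Mov10, a helicase that travels with RISC, had the highest value of the list, with signals of 13.75 and 11.21 and an E of 2.54, and Edc4, a scaffold of decapping, had 2.40. In the CCR4-NOT complex the scaffold Cnot1 had 2.12, while the deadenylase Cnot7 had -1.16 and was the lowest of the list.

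Of 18 miRNA biogenesis genes 8 (44.4%, against 12.5% of all genes) had E of at least 1 and 0 of at most -1, with a median of 0.75 that was 0.35 above their length classes. Dicer1, which cuts the hairpin into the mature miRNA, stood highest with an E of 2.08. The exportin Xpo5 had log2 signals of 12.73 and 10.75 and an E of 1.98, the nuclear nuclease Drosha had 1.50 ± 0.06 (SD, n = 2 probes) and its partner Dgcr8 0.69. The Dicer partners Prkra and Tarbp2 had -0.38 and -0.18. Lin28a, which blocks let-7 processing, had 1.57, and Lin28b 0.14.

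Neural genes were spread over both signs. For the 22 progenitor markers the median was 0.45 (0.10 above their length classes), with 4 genes (18.2%, against 12.5% of all genes) at 1 or more and 1 at -1 or less. Sox3, a progenitor factor of the SoxB1 family, had 16.76 and 14.67 and an E of 2.10. Nes (nestin), the intermediate filament of neural stem cells, had 17.79 and 15.70 and an E of 2.09. Hes1 had 1.92 and Cdh2 (N-cadherin) 1.89 ± 0.42 (SD, n = 2 probes). Hes5, like Hes1 a repressor downstream of Notch, had 15.44 and 16.19 and an E of -0.75, so that the pair lay on opposite sides of zero. Sox2 had -0.05, Sox1 0.86 and Pax6 0.41, the last from probes at -0.23 and 1.04. Gpm6a, a membrane glycoprotein of growing neurites, was lowest with -1.49.

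The 25 neuron markers had a median of 0.27 (-0.08 relative to their length classes), 2 genes at 1 or more and 1 at -1 or less. The proneural factor Neurod1 (1.36 ± 0.16, SD, n = 2 probes) and the growth cone protein Crmp1 (1.12) were highest. Snap25, the SNARE of synaptic vesicle release, was lowest, with 13.13 on the Ago–RNA array and 15.01 on the total RNA array and an E of -1.88. Next came Nefm with -0.86 and the tubulin-binding Stmn1 with -0.54. Tubb3 had 0.62, Dcx -0.23, Mapt (tau) 0.59, Gap43 -0.16 and Syp (synaptophysin) -0.23. Thus 13 of the neuron markers were above zero and 12 below it, where the median of all genes was 0.09.

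Pathways that act on neural precursors through long surface proteins were mostly above zero. In the Notch pathway 9 of 24 genes (37.5%, against 12.5% of all genes) had E of at least 1 and 0 of at most -1, with a median of 0.82 (0.28 above their length classes). The receptors Notch2, Notch3 and Notch1 had 2.32, 1.46 and 0.88, and the ligands Jag1 and Dll1 1.07 and 0.90. The DNA-binding partner Rbpj had 1.45, but its probes were far apart, with 0.53 in the 3′ UTR and 2.37 at the other. Of 38 axon guidance genes 17 (44.7%) had at least 1 and 2 (5.26%) at most -1, with a median of 0.88 (0.24). Plxnb2, a semaphorin receptor, was highest with 17.29 and 15.13 and an E of 2.17, followed by the Slit receptor Robo2 with 2.01 and the netrin Ntn1 with 1.99. Robo3 (-1.22) and Plxna1 (-1.01) were the 2 low ones. For the netrin receptor Dcc 3 probes gave -3.36, 1.27 and 1.86.

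In the matrix and cytoskeleton lists most genes had E of at least 1. Of 53 collagen, laminin and fibronectin genes on the array 41 passed on both arrays, with a median of 1.79, 29 genes at 1 or more and 0 at -1 or less, against 12.5% and 11.8% of all genes. They were long, with a median of 5010 coding bases, and relative to genes of their length class the median was still 0.67. Col12a1 (3.30), Col22a1 (2.94), Fn1 (fibronectin, 17.15 and 14.41, E 2.74) and Lama1 (17.15 and 14.43, E 2.72) were highest, and Col7a1 was lowest with -0.98. These counts leave out genes seen on 1 array only. Col15a1, well above background in total RNA only, was at least 2.20-fold lower on the Ago–RNA array. Of the basement membrane chains Col4a1 had 1.75, Col4a2 2.64, Lamb1 2.02 and Lamc1 1.82. The 24 motor proteins and cytoskeletal giants had a median of 1.52 (0.67 above their classes), with 17 genes at 1 or more and 0 at -1 or less. Dync1h1, the dynein heavy chain, came after Spna2 with 2.91, followed by Macf1, a spectraplakin, with 2.81 and Myh9, a nonmuscle myosin, with 2.76. The kinesins Kif20b and Kif21a were lowest with -0.58 and 0.04. Lama1 and Lama5 are on both lists.

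Chromatin regulators were grouped into the families that the study also examined on arrays of this series. All 4 DNMT genes had E of at least 1, as did 12.5% of all genes, with 2.40 for the maintenance enzyme Dnmt1 (14.28 and 11.87), 1.99 for Dnmt3a, 1.34 for Dnmt3b and 1.15 for Dnmt3l. Of 12 KDM genes 9 (75.0%) had at least 1, with a median of 1.21 and the highest value, 2.56, for Kdm3b. Relative to their length classes the medians were 1.12 for DNMT and 0.28 for KDM. Of 34 SWI/SNF and related genes 19 (55.9%) had at least 1 and 0 at most -1, with a median of 1.11 that was 0.13 above the length classes. The CHD remodelers Chd1, Chd3, Chd8, Chd7 and Chd4 had between 2.20 and 2.37, while Smarcd3, a SWI/SNF subunit, had -0.62 and was lowest. Medians were 0.81 for 8 HDAC genes (0.48 relative to their length classes), 0.59 for 17 genes of the HAT list (-0.04), 0.66 for 5 PRC1 genes (0.27), 0.38 for 8 genes of the PRC2 list (-0.20) and 0.60 for 5 arginine methyltransferase genes (0.31). The HAT list also took in Mgea5, an O-GlcNAcase, which stood at its top with 2.79. The PRC2 list took in the PRC1 subunit Bmi1, its lowest member with -0.90, while Jarid2 (1.91) was highest. Ring1 (-1.28) was the lowest of PRC1.

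Of 20 genes of the replicative helicase and the origin complex 8 had E of at least 1 and 3 at most -1, with a median of 0.50 that lay 0.01 from their length classes. In the helicase ring, Mcm2, Mcm3, Mcm4, Mcm5, Mcm6 and Mcm7 had 1.71, 1.85, 2.07, 1.01, 1.81 and 1.63. The GINS subunits of the same complex had -1.56 for Gins3, -1.54 for Gins2, -0.32 for Gins4 and -0.03 for Gins1, and the origin subunit Orc6 had -1.84. Of 36 proteasome genes 23 were below zero, 5 at 1 or more and 6 at -1 or less, with a median of -0.31 (-0.22 relative to their length classes). Psmd2, a subunit of the base, was highest with 2.45, and Psmd8, a subunit of the lid, lowest with -1.65. Aminoacyl-tRNA synthetases had a median of 0.81 (0.27 above their length classes) with 14 of 34 genes at 1 or more, Lars highest with 2.61. Nucleoporins had a median of 0.79 (0.14) with 10 of 23, Nup133 highest with 2.49.

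Lists of mostly short mRNAs had medians below zero. Of 85 cytosolic ribosomal protein genes 80 were below zero and 20 at -1 or less, or 23.5% against 11.8% of all genes, with 0 at 1 or more and a median of -0.52. A coding length was at hand for only 50 of them, with a median of 451.5 bases. Relative to their length class the median of these 50 was -0.18, which is not the same set of genes as that of the -0.52. Rplp1 had 16.35 on the Ago–RNA array and 18.17 on the total RNA array, an E of -1.82. Many ribosomal protein genes have near-identical pseudogenes, and a probe can read both. For 75 mitochondrial ribosomal protein genes the median was -0.78, and -0.60 relative to the length classes, with 69 genes below zero and 22 (29.3%) at -1 or less, the lowest Mrpl42 (-1.89) and the highest Mrpl44 (0.75). For 82 oxidative phosphorylation genes it was -0.74, with 65 below zero, 26 (31.7%) at -1 or less and 4 at 1 or more. Relative to the length classes their median was -0.41, over 73 genes with a coding length. Ndufs1 (1.85), Sdha (1.57) and Atp5a1 (1.36) stood at the upper end of this list. Histone cluster genes had a median of -0.58 (-0.29 relative to their length classes, over 36 genes), with 34 of 43 below zero, 8 (18.6%) at -1 or less and 0 at 1 or more.

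Of 18 RNAs on the nuclear RNA list that passed, 13 (72.2%, against 11.8% of all genes) had E of at most -1 and the median was -1.83. The list also took in hosts of small nucleolar RNAs, such as Gas5, Snhg1 (-0.89) and Snhg6 (-1.41), and was not limited to RNAs that stay in the nucleus. Besides Malat1, Meg3, Mirg and Gas5, E was -3.06 for Kcnq1ot1, an antisense RNA of an imprinted domain, -2.45 for Rmrp and -1.82 for Terc, the telomerase RNA. Neat1, of paraspeckles, had -0.84. H19, an imprinted noncoding RNA that is found in the cytoplasm, was the only member above zero, with an E of 1.15 ± 0.87 (SD, n = 2 probes). Imprinted mRNAs ranged from -1.34 for Nnat to 2.77 for Igf2r, with 2.31 for Grb10, 2.27 for Peg3, and a median of 0.10 (-0.35 relative to their length classes).

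Among other families, protocadherins had a median of 0.66 over 41 genes, above the upper quartile of all genes, and 24.4% of them were at 1 or more. Relative to their length classes, however, the median was -0.03, over 31 genes with a coding length. Medians were 0.34 for 333 Zfp genes (-0.10 relative to their length classes), 0.16 for 18 Hox genes (0.23), 0.26 for 78 channel genes (0.00, the name pattern also took Kcnq1ot1) and 0.15 for the 69 of 1101 olfactory receptor genes that passed (0.28). In the Hox clusters Hoxb8 (2.46) and Hoxb9 (1.72) stood apart from the other 16, which lay between -0.48 and 0.65. Pluripotency genes still detected had a median of 0.41 (0.46 relative to their length classes), glia genes of 0.35 (0.48), and mesoderm and endoderm genes of 0.52 (0.19).

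**Figure D4:**
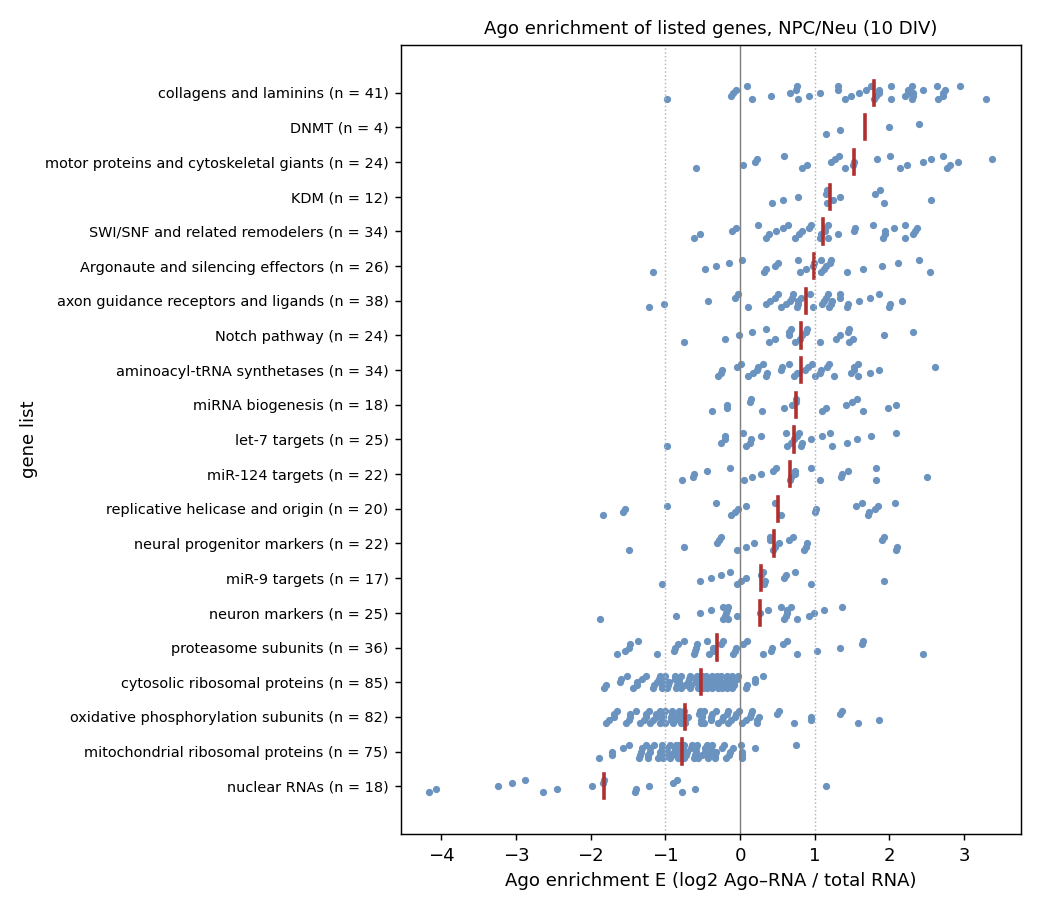
Ago enrichment in log2 units (horizontal axis) of the members of 21 gene lists that were well above background on both NPC/Neu arrays. Each blue dot is a gene, a red bar is the median of a list and dotted lines mark -1 and 1. Collagens and laminins lie highest (median 1.79) and nuclear RNAs lowest (median -1.83), while progenitor and neuron markers are spread over both signs.

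The miRNA side was looked at through seeds, since miRNAs themselves were not measured. Of 18 miRNAs listed, 14 were found by name in the RefSeq miRNA table (GRCm38.p6), and miR-124-3p, miR-302a-3p, miR-122-5p and miR-1a-3p were not used here. Mature sequences, with the seed (bases 2 to 8) in capitals, are shown for the miRNAs that are known from the neural lineage (let-7, miR-9 and miR-125b). Also shown are miR-17, miR-92a and miR-25, picked for the highest values below, miR-294 of ES cells, and miR-142a and miR-223 of blood cells.
let-7a-5p: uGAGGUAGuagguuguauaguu
miR-9-5p: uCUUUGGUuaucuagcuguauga
miR-125b-5p: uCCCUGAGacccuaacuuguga
miR-17-5p: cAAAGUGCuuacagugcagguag
miR-92a-3p: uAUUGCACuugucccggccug
miR-25-3p: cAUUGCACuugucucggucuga
miR-294-3p: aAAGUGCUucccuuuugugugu
miR-142a-3p: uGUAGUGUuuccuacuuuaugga
miR-223-3p: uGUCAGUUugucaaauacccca
miR-92a-3p and miR-25-3p share their seed. The seeds of miR-17-5p and miR-294-3p overlap when shifted by a base.

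A match was the reverse complement of the 7 seed bases on the sense strand of the 3′ UTR, over 13278 genes with at least 50 bases of 3′ UTR. The match CTACCTC of let-7 was found in 9.90% of these 3′ UTRs, ACCAAAG of miR-9 in 13.0%, CTCAGGG of miR-125b in 14.5%, GCACTTT of miR-17 in 13.6%, GTGCAAT of miR-92a and miR-25 in 7.14%, AGCACTT of miR-294 in 16.1%, ACACTAC of miR-142a in 6.39% and AACTGAC of miR-223 in 8.65%. Genes with a match had a higher median E than genes without it for all 14 miRNAs, by 0.14 to 0.31. For let-7a-5p the medians were 0.37 and 0.22, and for miR-92a-3p 0.52 and 0.21. Longer 3′ UTRs hold more matches and go with longer coding sequences. Genes with a match had the longer median coding sequence for all 14 miRNAs, for example 1587 against 1317 bases for miR-92a-3p. Coding length, whose rho with E was 0.53, was not held equal in what follows, and its part in the differences was not tested. Within 5 classes of 3′ UTR length the mean difference in E was between -0.02 for miR-294-3p and 0.16 for miR-92a-3p. This mean difference was 0.08 for let-7a-5p, 0.09 for miR-9-5p, 0.10 for miR-125b-5p and 0.14 for miR-17-5p, beside 0.11 for miR-142a-3p and 0.04 for miR-223-3p. For the miRNAs whose sequences are not printed it lay between 0.02 (miR-181a-5p) and 0.07 (miR-19b-3p). The classes themselves spread widely, from -0.04 to 0.33 for let-7a-5p and from -0.05 to 0.44 for miR-142a-3p.

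**Figure D5:**
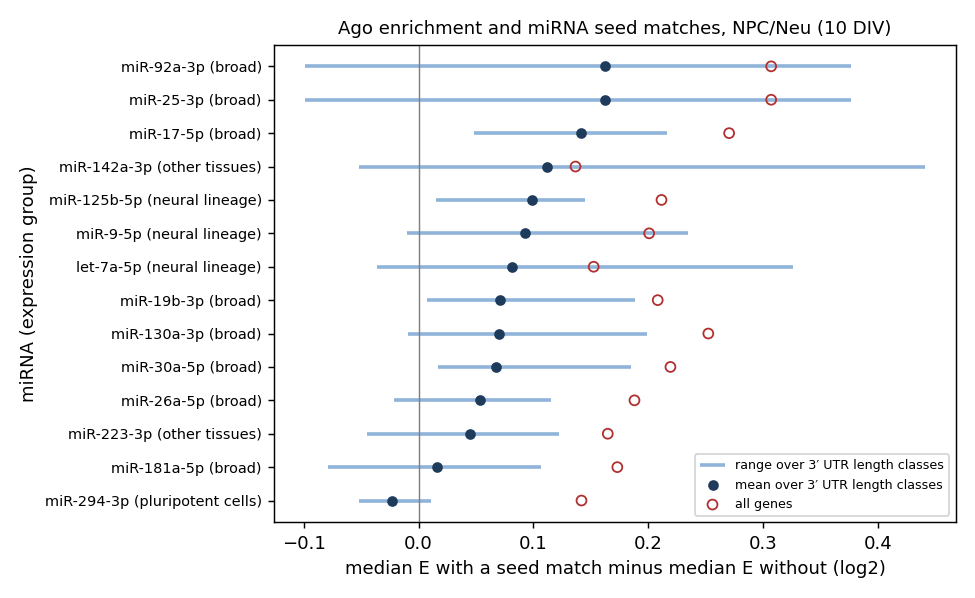
Difference in median Ago enrichment (horizontal axis, log2 units) between genes with and without a match to the seed of each miRNA (vertical axis) in the 3′ UTR. Open red circles show all genes, filled dots the mean over 5 classes of 3′ UTR length, and lines the range over those classes. The filled dots lie between -0.02 for miR-294-3p and 0.16 for miR-92a-3p.

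Single targets were read in lists of mRNAs known to be repressed by a miRNA. The 25 let-7 targets had a median E of 0.72 (0.60 above their length classes), with 7 genes (28.0%, against 12.5% of all genes) at 1 or more and 0 at -1 or less. Of 23 with a usable 3′ UTR 16 held the match, with a median of 0.77 against 0.63 for those without it. Dicer1 was highest. Lin28a had 13.94 on the Ago–RNA array and 12.37 on the total RNA array, and Trim71, a let-7-controlled ubiquitin ligase of progenitors, had 1.43. Hmga2, a chromatin protein of young neural stem cells whose 3′ UTR holds 4 matches, had -0.25. Its probes gave -0.51 and 0.01, and their mean lay 0.09 above its length class. The first match in each of 3 of these 3′ UTRs is printed in capitals with its flanks, to show that the same 7 bases stood under high values and under a value near zero.
Lin28a, E 1.57: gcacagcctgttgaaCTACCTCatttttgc
Trim71, E 1.43: aacattgcctaagtcCTACCTCagcttaaa
Hmga2, E -0.25: gccgacattcaatttCTACCTCagcatcag

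The miR-124 targets had a median of 0.67 over 22 genes (0.29 above their length classes), with 7 (31.8%, against 12.5% of all genes) at 1 or more. The integrin Itgb1 was highest with 2.51 ± 1.43 (SD, n = 2 probes), followed by Iqgap1 and Lamc1 with 1.82 each. Rest, the repressor of neuronal genes, had 0.74, and the splicing regulators Ptbp1 and Ptbp2 0.73 and -0.78. The 17 miR-9 targets had a median of 0.28, 1 gene (5.88%) at 1 or more (Hes1) and 1 at -1 or less (Foxp1, -1.04 ± 1.23, n = 4 probes), and were 0.16 below their length classes. Of 16 with a usable 3′ UTR 8 held the match, with a median of 0.29 against 0.14 for those without it. Hes1 was not among the 8. Targets of the miR-17 cluster had a median of 0.51 over 20 genes (0.08 above their length classes), with E2f3 highest (1.06), and those of the ES cell miR-290 family 0.25 over 17 (-0.33 relative to their length classes). Some genes, such as Rest and Hes1, are on several lists.

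Some RNAs were well above background on 1 of the arrays only. On the total RNA array alone 2156 genes passed, and on the Ago–RNA array alone 962. A bound was computed as the signal on the brighter array over the higher of the gene's own signal and the lowest well measured signal on the dimmer array. Among 2116 genes of the first kind with a regular spot on both arrays it was at least 4-fold for 129, and among 959 of the second kind for 1. Of these genes 602 and 174 were intergenic lincRNA intervals, and 493 and 478 RefSeq mRNAs. With a symbol, Cpb2, H2-M11 and Dsg1c had the largest bounds, being at least 10.8-fold, 10.7-fold and 10.1-fold lower on the Ago–RNA array. Pbp2 was at least 4.42-fold higher there, Tnc, the matrix protein tenascin C of neural stem cell niches, at least 3.45-fold over 2 probes, and Corin at least 3.36-fold.

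Set beside the other stages, the spread of E was widest at NPC/Neu. Its SD was 0.96 here, 0.86 in ES cells, 0.54 in ELA and 0.69 in NPC, and rho with coding length was 0.53, 0.62, 0.28 and 0.37. E of at least 1 was reached by 12.5% of genes here against 10.8%, 3.85% and 5.90%. The median of collagens and laminins was 1.79 here, 0.92 in ES cells, 0.12 in ELA and 0.87 in NPC, with 41, 38, 28 and 37 genes passing. That of nuclear RNAs was -1.83, -2.32, -0.93 and -1.63, and that of intronic probes -0.76, -0.55, -0.39 and -0.49. The arrays were quantile normalized together, each stage has 1 array of each kind, and none of these differences was tested.

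In 38 genes, 0.710% of those with 2 or more probes, some probes had E of at least 1 and others at most -1, so that the gene mean hides both. Besides Eif2c2 and Dcc, they included Cntfr, a receptor of ciliary neurotrophic factor, with 2.13 and -3.70 at probes in the 3′ UTR, and Brd1, a bromodomain protein, with 1.05 in the coding sequence and -3.26 in the 3′ UTR. Kdm5b, with 4 probes in the 3′ UTR, gave 2.42, 1.75, 0.17 and -2.63.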

How the data were processed

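The authors deposited, for each array, the spot intensity as Agilent's scanner software wrote it (Feature Extraction 10.7.3.1 per the file headers, while the submitters' notes name 9.1), before any normalization between arrays. Labels give 50 ng of RNA for labeling. Mean and local background intensity were corrected with normexp (offset 50, limma 3.58.1, R 4.3.3), irregular spots were dropped, and quantile normalization of the log2 values took in all 8 arrays, which removes differences in overall recovery. Spots of a repeated probe were averaged. The number of arrays limits the precision. E was averaged over probes of a gene with at least 50% of spots well above background on both arrays. Probes were matched to GENCODE M1 transcripts on mm9, the build of the array. Of the 21051 genes, 14566 had a current symbol or a single synonym in RefSeq. Python 3.11.15, numpy 2.4.6, pandas 2.3.3, scipy 1.17.1 and matplotlib were used.

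Genes named at the ends of the range were the 10 highest and 10 lowest with a symbol, the 8 highest and 8 lowest with concordant probes, the ends of each list, and the largest bounds. Other members of lists over 30 genes, and examples by probe place or of disagreeing probes, were chosen after their values were seen. Brightest genes were not ranked, since levels of different probes cannot be compared, and some members that met these rules are not reported here. Members and lists were chosen with earlier results of these data known. The procedure was tested on simulated data. Alternatives were other offsets, scalings, signals, filters and probe rules.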

Additional observations from a re-analysis of the deposited data

Results flagged for a closer look

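Among the mitochondrial mRNAs and the genes named at the ends of the range, 3 had E of one sign in NPC/Neu and of the other sign at an earlier stage, with both values farther from zero than the SD of 0.29 between probes of a gene. Each rests on 1 array per condition, and the difference was not tested. The mitochondrial mRNA ND6 had E of 2.65 in NPC/Neu and -0.53 in NPC, from 1 probe. ND2 had -2.09 in NPC/Neu and 0.32 in ELA, also from 1 probe. Slfn9, with 2 probes in NPC/Neu, had -2.59 there and 0.45 in ELA. Medians of 4 gene lists were above zero in NPC/Neu and below it in ELA and lay apart by more than 0.29, also untested. They were 0.81 and -0.01 for HDAC genes, 0.28 and -0.04 for miR-9 targets, 0.41 and -0.14 for pluripotency genes, and 0.26 and -0.05 for channels. An SD between probes of a gene does not measure the error of a list median. The ELA medians all lay within 0.29 of zero, and the genes that passed could differ (17 and 11 miR-9 targets).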

How the results depend on the processing

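Gene counts, spread, correlations with length, list medians, seed differences, intronic probes and genes at the ends of the range were recomputed under 11 alternatives, 1 at a time. Bounds of genes detected on 1 array were not. The counts of genes past a limit stayed within 1.5 times, except that genes with E of at least 2 went from 295 to 550 with the processed signal quantile normalized. Scaling to the 75th percentile shifted the median E of all genes from 0.09 to -0.13, and to -0.12 with the processed signal, so directions near zero hold only relative to that shift. Under these 2 scalings the median of ribosomal protein genes was -0.88 and -0.89. With the processed signal scaled this way, nuclear RNAs had a median of -2.27 and intronic probes of -1.34. Without a filter on low values it was -1.21 for nuclear RNAs, -0.33 for intronic probes and 1.08 for collagens and laminins. Seed differences within classes of 3′ UTR length were above zero for 13 of 14 miRNAs under each alternative except the one without a filter, where all were and miR-294-3p had 0.0019. There miR-142a-3p had 0.0494. With 75th percentile scaling the values were 0.22 for miR-92a-3p and miR-25-3p and 0.16 for miR-130a-3p, and with the processed signal scaled this way 0.25, 0.25 and 0.16, beside 0.20 for miR-17-5p, 0.13 for miR-19b-3p and 0.16 for miR-30a-5p. Of 451 list medians 10 had another sign, in 4 lists with medians near zero (imprinted mRNAs, Hox genes, channels and olfactory receptors). None of 439 values of single genes at the ends of the range or of mitochondrial mRNAs changed sign, but 54 moved by at least 0.29. Most of these genes were picked for values far from zero, so that a kept sign says little about them. Leaving out saturated spots changed nothing, as there were 0. The intronic probes, the exon and intron pairs (0.43 to 0.87) and the spread at other stages, which was below that of NPC/Neu under the 10 alternatives run for it, were added after seeing the data. No paired analysis was possible because each group has 1 array and no replicate could be left out. Weak spots limit what can be read, since only genes above background on both arrays give a ratio.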
